A study of Mus musculus with 30 samples.

Results

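The transcripts described here come from 45 genes that work in mitosis, the division of a cell's chromosomes between its daughters, measured in mouse blood. The list held Cdk1 and its cyclins, the mitotic kinases, the chromosomal passenger complex, the spindle checkpoint and genes of protein degradation in mitosis. It also held genes of the kinetochore, spindle, cytokinesis and chromosome structure. A gene counted as measured when the array carried a probe under its name that passed the scanner's test of being well above background on 4 or 5 arrays in any group, and the brightest such probe stood for the gene. By that rule 34 of the 45 genes were measured, through 46 of their 65 probes, among 18726 genes or unnamed features measured in all. The other 11 genes had no such probe: Nek2, Aurkb, Bub1, Bub1b, Ttk, Cenpf, Nuf2, Kif11, Kif2c, Kif4 and Ncapg. Cdk1, the kinase that drives entry into mitosis, met the rule in 1 group alone, unirradiated p38DKI mice, where 4 of 5 arrays were well above background.

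The mice were male C57BL/6J animals with the genotype p38WT, p38DKI or p38DN. Blood was taken by cardiac puncture, either without irradiation or 24 h after an x-ray dose of 7 Gy. Each of the 6 groups held 5 one-colour arrays, numbered as replicates and taken as 1 mouse each, 30 in all. By its title the study concerns p38, a stress-activated protein kinase, and biodosimetry, the estimate of a radiation dose from a biological sample. DKI and DN are written as the labels write them, and neither the ages of the mice nor the make of the DKI and DN alleles was given in the sources used here. Genotype is shared by the unirradiated and irradiated mice of a comparison, so an irradiation effect is a difference between mice of 1 genotype.

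Mitotic genes are transcribed late in the cell cycle and are nearly silent in resting cells, so in tissue RNA their level follows how many cells divide. Most circulating leukocytes do not divide, while reticulocytes, the youngest red cells, carry RNA left over from their dividing precursors in the marrow and spleen. Many mitotic promoters hold a CCAAT box, bound by NF-Y, and a cell cycle genes homology region (CHR), bound by the MuvB core of the DREAM complex, which represses them in resting cells and after p53 has induced Cdkn1a.

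The promoters are shown first because most of these genes carry both motifs. RefSeq promoters (build GRCm38.p6, 250 bases before to 50 bases after the transcription start) were found for 37 of the 45 genes. The CHR letters TTTGAA, searched on both strands, were in the promoter of 29 of the 37 genes (78.4%), against 20.2% of 27025 genes with a promoter in the same table. CCAAT, also on both strands, was in 30 of the 37 (81.1%, against 41.1%), and both were in 26 of the 37 (70.3%, against 7.97%). A match of one motif can share at most 1 letter with a match of the other. The 5 windows printed below run from 110 bases before to 20 bases after the start, 5' to 3' on the gene's own strand, with the letters of either motif, on either strand, in capitals. They are Ccnb2 (chr9:70421535-70421664, minus strand) and Ube2c (chr2:164769819-164769948, plus strand), which were among the steepest falls after irradiation, Cdc20 (chr4:118437324-118437453, minus strand), Kif22 (chr7:127042401-127042530, minus strand), which was higher after irradiation in p38DN mice, and Nusap1 (chr2:119618188-119618317, plus strand), which fell most and has neither motif in its window.
Ccnb2: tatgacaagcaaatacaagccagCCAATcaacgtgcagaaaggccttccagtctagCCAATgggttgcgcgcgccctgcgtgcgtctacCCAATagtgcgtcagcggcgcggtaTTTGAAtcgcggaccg
Ube2c: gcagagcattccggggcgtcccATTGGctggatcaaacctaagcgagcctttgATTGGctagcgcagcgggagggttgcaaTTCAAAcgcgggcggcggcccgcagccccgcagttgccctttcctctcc
Cdc20: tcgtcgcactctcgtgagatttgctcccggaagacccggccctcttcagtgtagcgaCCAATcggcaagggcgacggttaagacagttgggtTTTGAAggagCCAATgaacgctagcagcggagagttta
Kif22: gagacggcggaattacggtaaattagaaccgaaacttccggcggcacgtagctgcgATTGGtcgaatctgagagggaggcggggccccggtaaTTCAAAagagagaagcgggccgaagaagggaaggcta
Nusap1: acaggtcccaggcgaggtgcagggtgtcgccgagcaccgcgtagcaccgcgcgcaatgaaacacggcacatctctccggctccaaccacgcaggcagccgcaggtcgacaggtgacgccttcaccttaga
Ccnb2 held 3 CCAAT boxes in this window and a CHR at position 5 from the start. In Ube2c, Cdc20 and Kif22 the CHR was at positions -29, -18 and -17. TTTGAA was in the promoter of 22 of the 27 measured genes with a promoter (81.5%). By irradiation effect, it was in 7 of 11 promoters of genes that fell in p38DKI mice, 2 of 4 that fell in p38WT, 3 of 4 that fell in p38DN, 7 of 7 that rose in p38DN and 7 of 8 called in none. A match of letters is a description of the promoter and not a measured binding site.

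Levels are given in log2 units of processed signal above or below an array's own 75th percentile, and levels of different genes are not compared with each other. Between 39.7 and 63.2% of probes were well above background on an array, and the 75th percentile lay between 43.3 and 230 intensity units. The samples carried the transcripts of blood: haemoglobin (Hba-a1, Hbb-bt), Alas2, Cd3e, Cd79b, S100a8, Csf3r and Pf4 were well above background on 30 of 30 arrays. Some arrays also carried liver or heart muscle transcripts. The mean level of 42 liver markers was 7.84 on p38DKI irradiated array 2 and 6.47, 6.46 and 5.51 on p38DN unirradiated arrays 4, 5 and 2, against -3.82 to -1.55 on the 10 p38WT arrays. For 11 heart markers it was 2.37 on p38WT irradiated array 2 and 1.56 on p38DN irradiated array 3. On p38WT unirradiated arrays 1 and 3 it was 1.33 and 0.05, against -3.31 to -1.28 on the others. The p38WT and p38DKI arrays shared slides 1 to 5, and the p38DN arrays were on slides 6 to 10 from an earlier scan period, so levels of p38DN and p38WT mice are not compared. A pair of p38DN arrays lay unusually close. Unirradiated arrays 4 and 5 differed with an SD of 0.268 (log2) over 18184 probes, where repeated spots on 1 of these arrays differed with an SD of 0.239, and irradiated arrays 1 and 5 differed with an SD of 0.359. The other 58 within-group pairs had SDs of 0.381 to 1.62. The labels number these arrays as separate replicates, and they were kept as such. Whether they came from separate mice was not tested, and counts with each close pair averaged to 1 sample are given below.

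**Figure D1:**
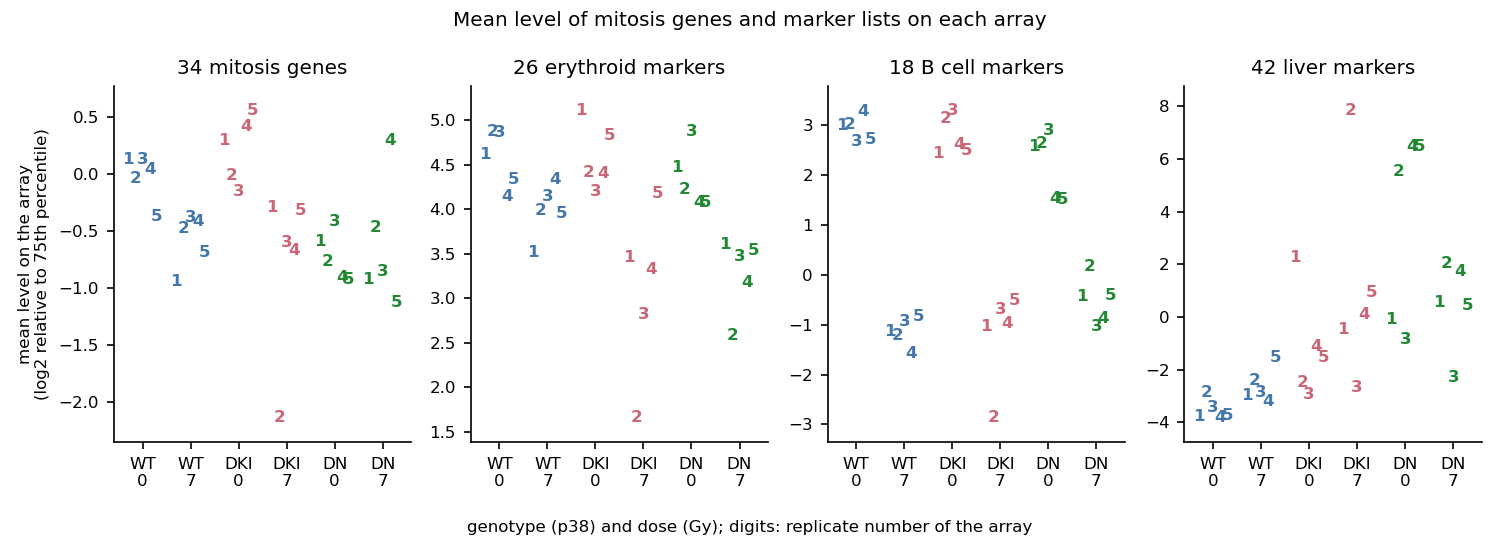
Mean level on each of the 30 arrays (log2 relative to the array's 75th percentile) of the 34 mitosis genes and of 26 erythroid, 18 B cell and 42 liver markers, by group, with the digit giving the replicate. The mitosis mean was lowest on p38DKI irradiated array 2 (-2.14), which was also the highest in liver markers (7.84).

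In p38WT blood 24 h after irradiation, 7 of the 34 genes were lower and 0 were higher. Nusap1, a protein that bundles spindle microtubules, fell 5.73-fold, and Stmn1 (stathmin, which destabilises microtubules) fell 2.88-fold. The others were Ccna2 (cyclin A2), 3 condensin subunits that compact chromosomes (Ncapd2, Smc4 and Smc2) and the checkpoint protein Mad2l1. Of all genes, 27.1% passed, 12.1% lower and 15.0% higher (limma, Benjamini-Hochberg adjusted p under 0.05), so the share of mitosis genes that fell (20.6%) was somewhat above that of all genes. The median change was -0.58 over the 34 genes and -0.03 over all genes, 28 of the 34 estimates were negative, and 12 had an unadjusted p under 0.05. In whole blood, fewer cells of a type and less RNA per cell cannot be told apart.

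Nusap1 (probe at chr2:119475072-119475131, build mm9) stood at 6.08, 6.56, 6.41, 5.57 and 5.6 on unirradiated p38WT arrays 1 to 5 and at 2.74, 3.54, 4.15, 3.64 and 3.54 on the irradiated ones. The groups did not overlap, and the change of -2.52 (SE 0.373, adjusted p = 1.72e-05) was several times the spread within either group. SEs come from the spread pooled over all 6 groups. Ccna2 (chr3:36463978-36464037), the cyclin that acts from DNA replication to early mitosis, was at 2.52, 2.86, 2.88, 1.77 and 2.05 before and at 0.19, 0.94, 1.99, 1.54 and 1.14 after. Irradiated array 3 lay above unirradiated array 4, so the groups overlapped, with a change of -1.25 (SE 0.415, adjusted p = 0.0252). Mad2l1, which holds back anaphase until chromosomes are attached, was at -0.32, -0.34, -0.19, 0.35 and -0.48 before and -1.09, -0.77, -0.49, -1.13 and -0.94 after (change -0.69, SE 0.247, adjusted p = 0.0391). This was a small fall, with the highest irradiated array just below the lowest unirradiated one.

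Both condensin genes shown next were separated between the groups. Smc4 (chr3:68838437-68838496), an ATPase of the condensin ring, was at 2.28, 2.52, 2.43, 2.65 and 2.49 before and at 1.58, 1.4, 1.67, 1.56 and 1.42 after, a change of -0.94 (SE 0.227, adjusted p = 0.00266). Ncapd2 (chr6:125118012-125118066), a regulatory subunit of condensin I, was at 1.34, 0.92, 1.02, 1.21 and 0.73 before and at -0.38, 0.34, 0.32, -0.27 and -0.88 after (change -1.22, SE 0.279, adjusted p = 0.00176). The spread within a group was smaller for Smc4 than for Ncapd2. Smc2, the partner of Smc4, changed by -0.87 (SE 0.267, adjusted p = 0.0164), although its probe shares a run of up to 22 bases with a probe of Enpp1. Stmn1 changed by -1.53 (SE 0.307, adjusted p = 0.000547). In all, 9 of the 34 genes had irradiated arrays wholly below the unirradiated ones (11.4% of all genes did), among them Aurka, Ccnb2 and Top2a, which did not pass the test.

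In the other roles no gene passed. Aurka, the kinase that matures the spindle poles, was at -1.44, -1.72, -1.98, -1.63 and -1.99 before and -2.89, -3.26, -3.09, -2.66 and -2.72 after (change -1.17, SE 0.502, adjusted p = 0.0853). Ube2c, the E2 enzyme that supplies ubiquitin to the anaphase-promoting complex, was at 7.15, 7.61, 7.5, 6.68 and 6.89 before and 5.46, 6.1, 6.88, 6.4 and 5.94 after (change -1.01, SE 0.389, adjusted p = 0.0542). The Aurka arrays did not overlap, while irradiated array 3 lay within the unirradiated range for Ube2c. Birc5 (survivin, of the passenger complex) was at 2.83, 2.31, 2.84, 2.65 and 1.92 before and 1.0, 1.83, 2.33, 2.05 and 1.84 after (change -0.70, SE 0.342, adjusted p = 0.136). Cenpa, the centromeric histone H3 variant, was at 0.92, 0.63, 0.70, 0.79 and 0.36 before and -0.64, -0.18, 0.96, -0.11 and -0.04 after (change -0.69, SE 0.296, adjusted p = 0.0876). Kif23, a kinesin of the central spindle, was at -2.51, -2.80, -2.14, -2.73 and -1.43 before and -2.0, -2.15, -1.35, -1.09 and -1.94 after (change 0.62, SE 0.388, adjusted p = 0.257). All 3 overlapped, Cenpa through irradiated array 3 alone. Ccnb2 (cyclin B2) had a change of -0.90 (adjusted p = 0.0772) and Mki67, the proliferation antigen Ki-67, of 0.58 (adjusted p = 0.326).

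None of the 6 cytokinesis genes and none of the 4 kinetochore genes passed. Cell type markers moved as well: 11 of 26 erythroid markers fell and 4 rose (mean level 4.14 to 4.88 before and 3.51 to 4.33 after). B cell markers fell in 18 of 18 cases (2.67 to 3.29 before and -1.57 to -0.84 after) and T cell markers in 9 of 20. Others rose, with 19 of 20 platelet, 15 of 15 mature neutrophil and 11 of 14 NK cell markers higher. The part of each in the result was not tested. Slides limit this comparison, since 4 of the 5 unirradiated p38WT arrays filled slide 1. With slide as a fixed term in limma 0 of the 34 genes passed (3 at an unadjusted p under 0.05), where 0.87% of all genes did. Within slide 2 (3 irradiated arrays, 1 unirradiated) 24 of 34 were lower, with differences of -2.12 for Nusap1 and -0.94 for Smc4. The median difference there was -0.2 over the 34 genes and 0.13 over all genes, whose share below 0 was not counted. Single arrays also ended calls: Mad2l1 no longer passed without unirradiated array 1, 2, 3 or 4 or irradiated array 1, 4 or 5, Ccna2 without unirradiated array 2 or 3 or irradiated array 1, and Smc2 without irradiated array 4.

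**Figure D2:**
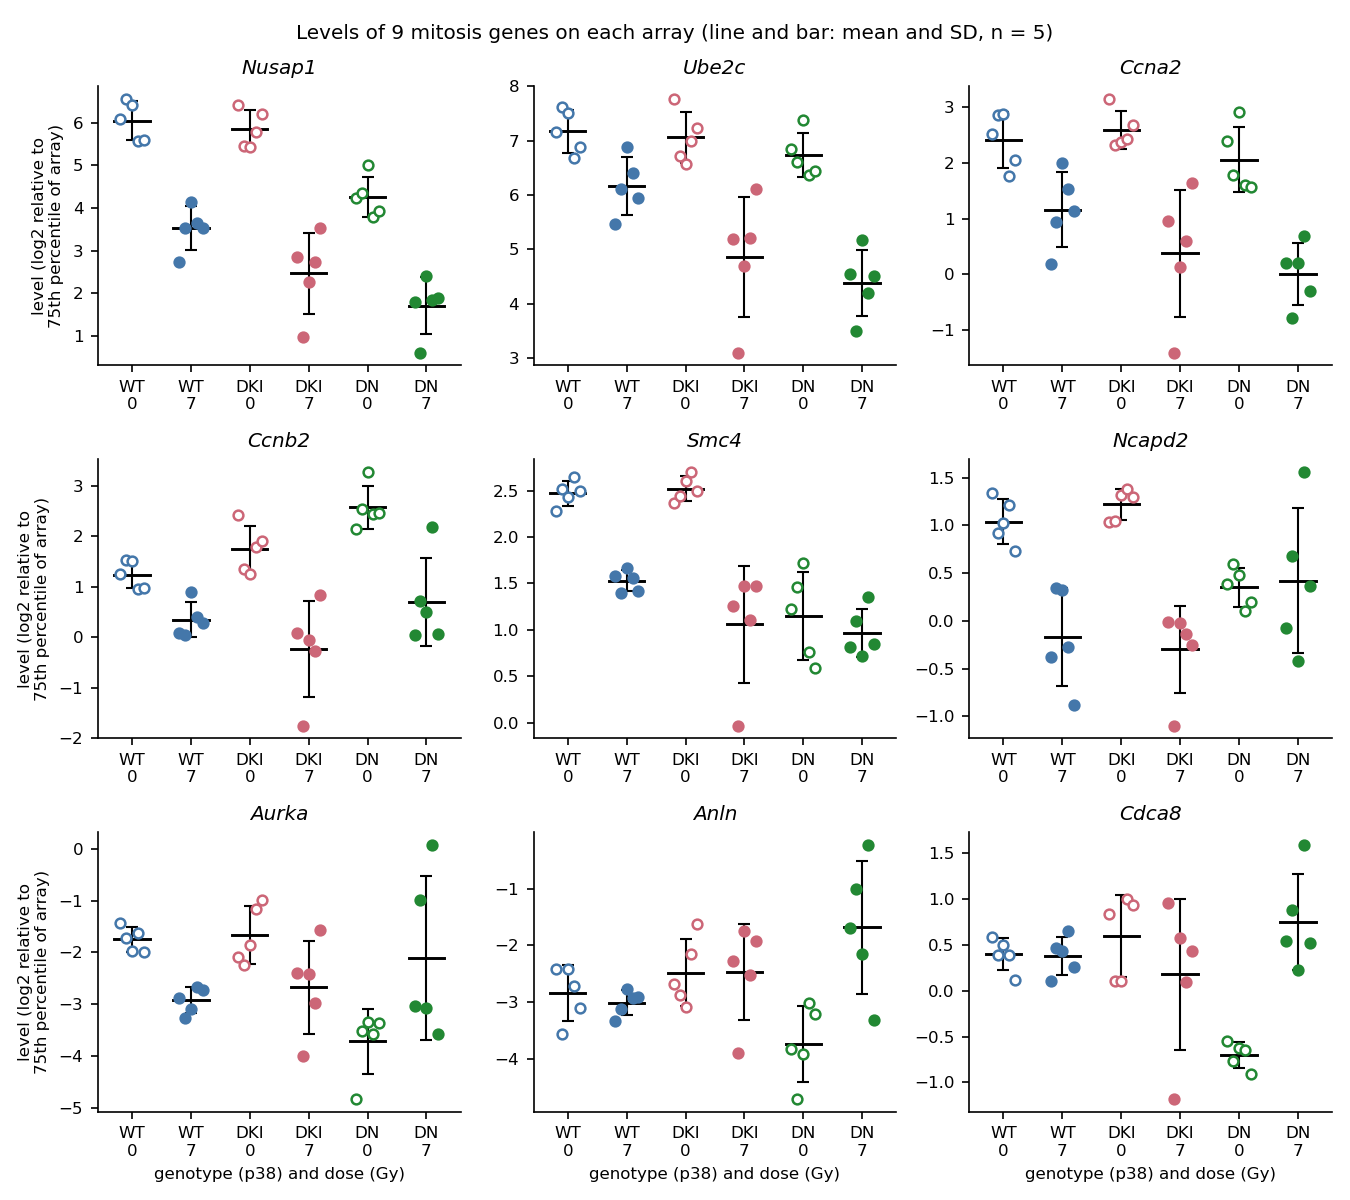
Level of 9 mitosis genes on every array (log2 relative to the array's 75th percentile) in p38WT, p38DKI and p38DN mice, open circles unirradiated and filled circles 24 h after 7 Gy, with the line and bar giving the mean and SD of 5 arrays. Nusap1 is separated in all 3 genotypes, while Cdca8 is separated only in p38DN mice, where the irradiated arrays are higher.

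In p38DKI blood the same question gave more falls: 15 of the 34 genes were lower and 0 were higher, where 31.3% of all genes passed, 19.3% lower and 12.1% higher. Nusap1 fell 10.4-fold, Ccna2 4.62-fold, Ube2c 4.6-fold, Stmn1 4.27-fold, Ccnb2 3.93-fold and Cdca3, a trigger of mitotic entry, 3.54-fold. The others were Kif20a, Cenpa, Ncapd2, Ccnb1, Cdc20, Smc4, Birc5, Plk1 and Mad2l1. The median change was -0.94 over the 34 genes and -0.25 over all genes, and 18 of the 34 had an unadjusted p under 0.05. For 13 of the 34 the irradiated arrays lay wholly below the unirradiated ones, and for 0 wholly above, against 12.5% and 7.23% of all genes (19.7% in either direction).

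All 3 measured genes listed under protein degradation fell. Ube2c (chr2:164598016-164598075) was at 7.77, 6.71, 6.57, 7.00 and 7.24 on the unirradiated arrays and at 5.18, 3.10, 4.69, 5.2 and 6.10 on the irradiated ones. Every irradiated array was below every unirradiated one, with a change of -2.20 (SE 0.389, adjusted p = 0.00014). Cdc20, the activator that turns the anaphase-promoting complex on, changed by -1.49 (SE 0.403, adjusted p = 0.00653), and Cdca3 by -1.83 (SE 0.401, adjusted p = 0.00123).

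Of the cyclins, Ccnb2 (chr9:70255671-70255730), a partner of Cdk1, was at 2.42, 1.35, 1.26, 1.78 and 1.91 before and at 0.09, -1.75, -0.05, -0.28 and 0.83 after (change -1.98, SE 0.375, adjusted p = 0.000297). Ccna2 was at 3.15, 2.32, 2.38, 2.43 and 2.67 before and 0.95, -1.4, 0.13, 0.60 and 1.64 after (change -2.21, SE 0.415, adjusted p = 0.00027). Both were separated between the groups, and in both irradiated array 2 was the lowest by over 1 unit. Ccnb1 (cyclin B1) changed by -1.5 (SE 0.54, adjusted p = 0.0353) with overlapping groups.

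Among spindle and kinetochore genes, Nusap1 was at 6.42, 5.44, 5.42, 5.77 and 6.19 before and 2.84, 0.98, 2.27, 2.74 and 3.53 after (change -3.37, SE 0.373, adjusted p = 2.52e-07), and Stmn1 changed by -2.09 (SE 0.307, adjusted p = 1.38e-05). Cenpa (chr5:30974916-30975386), which marks centromeres, was at 1.07, 0.59, 0.65, 0.81 and 0.86 before and at -0.54, -1.92, -0.50, -0.62 and -0.19 after. That is a change of -1.55 (SE 0.296, adjusted p = 0.000313) with no overlap. The other 3 measured kinetochore genes, Cenpe, Ndc80 and Spc25, did not pass, with changes of -0.57, -0.89 and -0.29.

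The passenger complex and the kinases each had 1 gene that fell. Birc5, which docks the complex at centromeres, was at 3.36, 2.69, 2.36, 3.31 and 3.50 before and 2.27, 0.73, 1.79, 1.5 and 2.78 after (change -1.23, SE 0.342, adjusted p = 0.00796). Plk1, the polo kinase of mitotic entry, was at -0.53, -0.68, -0.47, 0.18 and 0.26 before and -1.08, -2.78, -1.08, -1.34 and -1.09 after (change -1.23, SE 0.424, adjusted p = 0.0292). The Birc5 groups overlapped and the Plk1 groups did not. The partners of Birc5, Incenp (0.02, adjusted p = 0.962) and Cdca8 (borealin, -0.42, adjusted p = 0.252), did not pass. Mad2l1 of the spindle checkpoint was at 0.06, -0.34, -0.43, -0.12 and -0.06 before and -0.96, -2.18, -0.77, -0.79 and -1.19 after (change -1.0, SE 0.247, adjusted p = 0.00327), with no overlap.

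Kif20a, a kinesin of the central spindle, was the 1 cytokinesis gene of 6 that fell. It was at -2.42, -2.35, -2.17, -1.92 and -2.10 before and -2.96, -4.61, -3.38, -2.98 and -5.09 after (change -1.61, SE 0.387, adjusted p = 0.00261), with 2 of the 5 irradiated arrays well above background. Kif23, its neighbour in the central spindle, was at -2.85, -2.66, -2.37, -2.41 and -2.16 before and -2.36, -4.22, -2.36, -2.86 and -2.56 after (change -0.38, adjusted p = 0.447). Of the condensins, Smc4 was at 2.37, 2.44, 2.60, 2.70 and 2.49 before and 1.26, -0.03, 1.47, 1.11 and 1.47 after (change -1.46, SE 0.227, adjusted p = 3.1e-05). Ncapd2 changed by -1.52 (SE 0.279, adjusted p = 0.000209), while Smc2 (-0.59, adjusted p = 0.0893) did not pass.

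Array 2 of the irradiated p38DKI mice weighed on this comparison. Its mean over the 34 genes was -2.14, where the others of its group were at -0.67 to -0.29. Without it 13 genes fell and the median change was -0.62, with the share of all genes not counted. Ccnb1 and Plk1 no longer passed. The same pair was lost without unirradiated array 4 or 5, and Ccnb1 alone without unirradiated array 2 or irradiated array 4. Erythroid markers fell in 18 of 26 cases and rose in 2 (mean level 4.20 to 5.11 before and 1.66 to 4.18 after). B cell markers fell in 18 of 18 (2.44 to 3.30 before and -2.86 to -0.52 after) and T cell markers in 13 of 20. Platelet markers rose in 10 of 20 cases, mature neutrophil markers in 12 of 15 and NK cell markers in 3 of 14. The part of each was not tested. With slide as a fixed term only Nusap1 and Stmn1 passed, where 3.63% of all genes did. On slide 4, with 1 irradiated and 3 unirradiated arrays, 25 of 34 genes were lower, with differences of -2.95 for Nusap1 and -1.88 for Stmn1. The median difference there was -0.67 over the 34 genes and -0.06 over all genes, whose share below 0 was not counted. When arrays were scaled to their median instead, the median change of all genes was 0.17 and 11 of the mitosis genes fell. In that setting 27.1% of all genes passed in either direction, against 31.3% as reported.

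**Figure D3:**
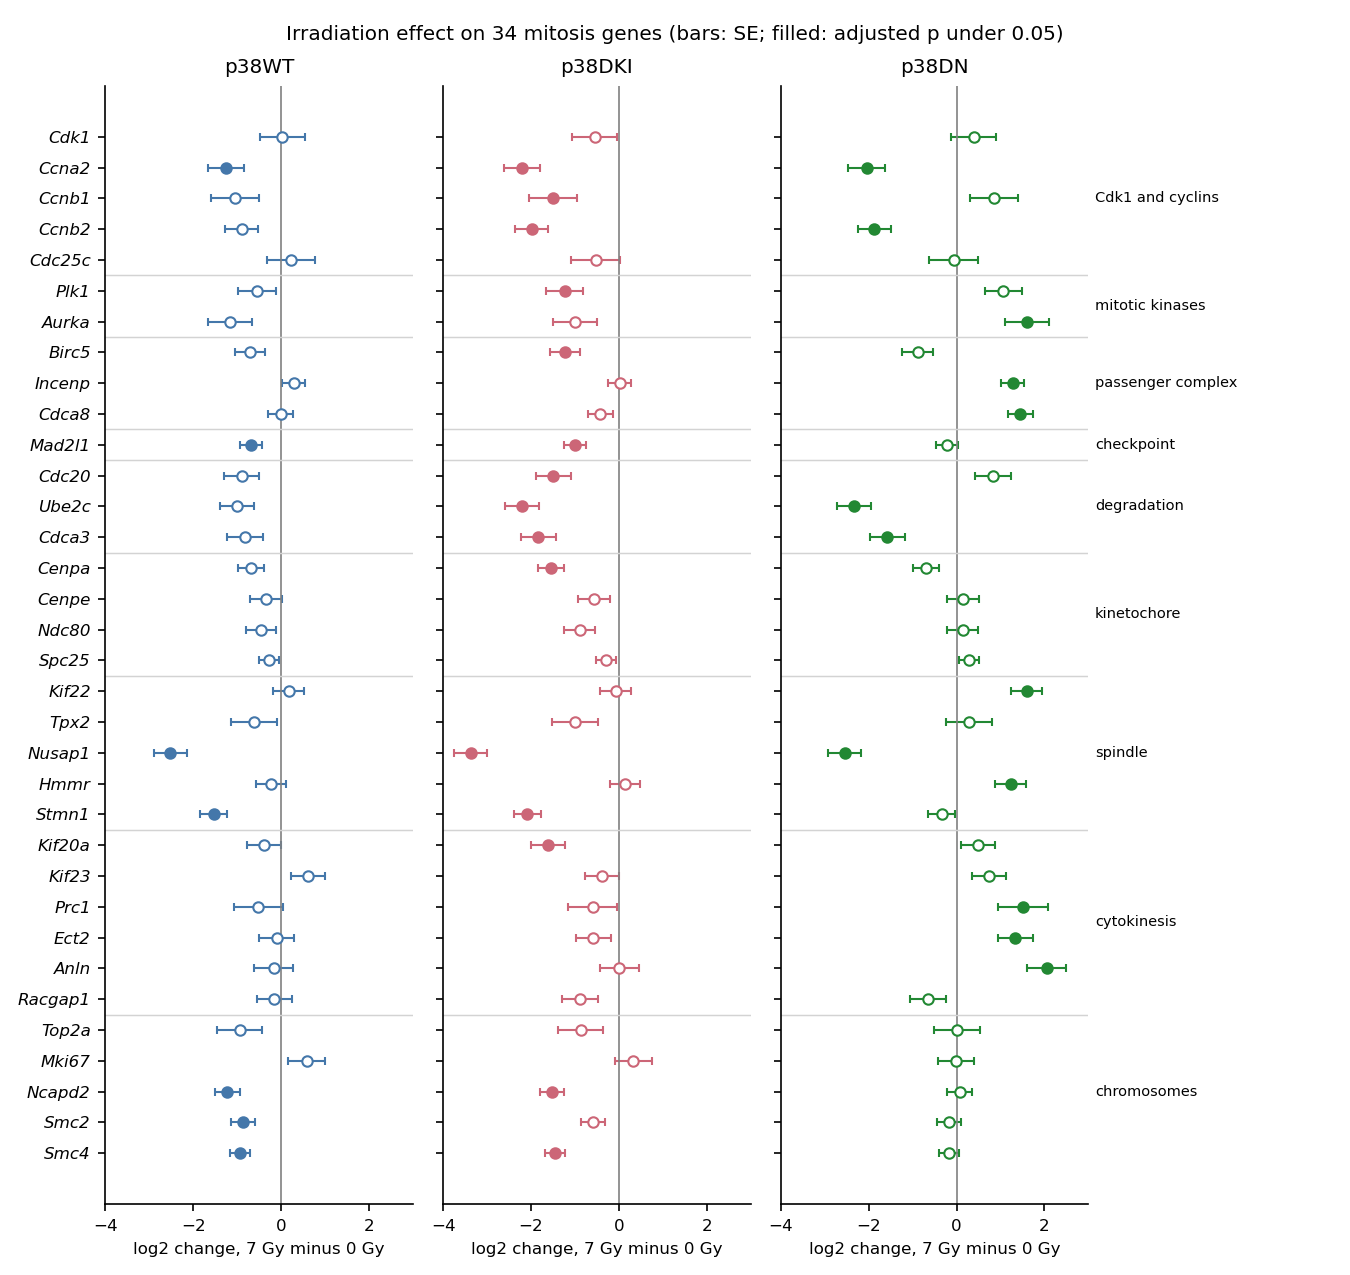
Change in level 24 h after 7 Gy (log2, irradiated minus unirradiated, bars give the SE) for the 34 measured mitosis genes in each genotype, filled where the adjusted p was under 0.05. The filled points of p38WT (7) and p38DKI (15) are all below 0, and those of p38DN are 5 below and 8 above.

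In p38DN blood the genes moved in both directions: 5 of the 34 were lower and 8 were higher, against 10.3% and 17.6% of all genes. More were higher than lower, as among all genes. In either direction 38.2% of the 34 passed, somewhat above the 27.9% of all genes. The 5 that fell were Nusap1 (5.87-fold), Ube2c (5.08-fold), Ccna2 (4.15-fold), Ccnb2 (3.66-fold) and Cdca3 (2.99-fold), all of which also fell in p38DKI mice. The 8 that rose were Kif22 (3.02-fold), Prc1 (2.85-fold), Cdca8 (2.73-fold), Incenp (2.43-fold), Anln, Aurka, Hmmr and Ect2, none of which passed in the other genotypes. Aurka was well above background on 1 of 5 unirradiated arrays and Anln on 2 of 5, so their rises are measured against dim values and no fold is given. For Hmmr and Ect2 no unirradiated p38DN array was well above background, so their rises are given as at least 1.94-fold and at least 1.08-fold, set against the lowest well detected signal of each array, and for Ect2 only 2 of the 5 irradiated arrays measured it (adjusted p = 0.00934 for Hmmr and 0.0128 for Ect2). The median change was 0.14 over the 34 genes and 0.01 over all genes, with 17 of the 34 at an unadjusted p under 0.05.

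The falls are given first. Nusap1 was at 4.23, 4.35, 5.0, 3.79 and 3.92 before and 1.79, 0.61, 2.40, 1.84 and 1.90 after (change -2.55, SE 0.373, adjusted p = 1.43e-05). Ube2c was at 6.85, 6.61, 7.38, 6.37 and 6.44 before and 4.55, 3.49, 5.17, 4.20 and 4.51 after (change -2.34, SE 0.389, adjusted p = 6.16e-05). Ccna2 was at 2.40, 1.79, 2.92, 1.61 and 1.57 before and 0.20, -0.78, 0.21, 0.68 and -0.29 after (change -2.05, SE 0.415, adjusted p = 0.000509). For these 3 genes the groups did not overlap. Ccnb2 was at 2.15, 2.54, 3.27, 2.44 and 2.45 before and 0.05, 0.71, 0.49, 2.18 and 0.07 after (change -1.87, SE 0.375, adjusted p = 0.000469), the overlap coming from irradiated array 4 alone. Cdca3 changed by -1.58 (SE 0.401, adjusted p = 0.00392).

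Of the rises, 2 were in the passenger complex. Cdca8 (chr4:124595809-124595868), the borealin subunit, was at -0.55, -0.76, -0.62, -0.64 and -0.91 before and 0.54, 0.88, 0.23, 1.59 and 0.52 after (change 1.45, SE 0.286, adjusted p = 0.000395). Incenp (chr19:9946893-9946952), the scaffold of the complex, was at 1.99, 1.84, 2.09, 1.84 and 1.82 before and 3.37, 2.91, 2.83, 3.46 and 3.43 after (change 1.28, SE 0.262, adjusted p = 0.000567). Both were higher on every irradiated array than on any unirradiated one. Birc5 of the same complex had a change of -0.89 (SE 0.342, adjusted p = 0.0535). Kif22 (chr7:134171255-134171314), a kinesin that moves chromosome arms, was at -1.72, -2.69, -2.59, -2.46 and -2.40 before and -0.65, -0.86, -1.36, 0.29 and -1.30 after, also without overlap (change 1.60, SE 0.351, adjusted p = 0.00113). These were the 3 genes of the list with irradiated arrays wholly above the unirradiated ones, a pattern found in 12.4% of all genes, and 3 others were wholly below (7.67% of all genes, 20.1% in either direction).

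The other rises rested on fewer arrays. Aurka (chr2:172181726-172181785) was at -4.83, -3.51, -3.34, -3.57 and -3.36 before, with 1 array well above background, and at -3.03, -0.98, -3.07, 0.07 and -3.57 after, with 3 (change 1.61, SE 0.502, adjusted p = 0.0171). Arrays 2 and 4 held the rise, and array 5 lay within the unirradiated range. Anln (anillin, a scaffold of the cleavage furrow) was at -3.83, -4.71, -3.91, -3.01 and -3.21 before, with 2 arrays well above background, and -1.70, -1.0, -2.15, -0.23 and -3.32 after, with 4 (change 2.05, SE 0.443, adjusted p = 0.000943). Again arrays 2 and 4 were the highest. Prc1, which bundles microtubules at the midzone, was at -1.5, -2.31, -2.51, -2.52 and -2.30 before and -1.88, 0.18, -1.07, 1.19 and -1.99 after (change 1.51, SE 0.559, adjusted p = 0.0438). Plk1 had the same shape without passing, at -1.68, -2.94, -2.13, -2.41 and -2.16 before and -2.63, -0.40, -1.34, 0.57 and -2.21 after (change 1.06, SE 0.424, adjusted p = 0.0631). Irradiated arrays 2 and 4 also differed from the rest of their group in several marker means. They were the highest in liver markers (2.02 and 1.73 against -2.31 to 0.53) and monocyte markers (2.72 and 2.89 against 2.14 to 2.38). They were the lowest in T cell markers (0.26 and 0.26 against 1.14 to 1.34) and NK cell markers (0.32 and 0.35 against 1.4 to 1.91). Unirradiated arrays 2, 4 and 5 were higher still in liver markers, at 5.51, 6.47 and 6.46. The part of any of these was not tested.

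Genes without a call in p38DN mice included members that fell in both other genotypes. Ncapd2 was at 0.39, 0.59, 0.48, 0.10 and 0.20 before and -0.08, 0.68, -0.42, 1.56 and 0.36 after (change 0.07, adjusted p = 0.886), Smc4 was at 1.23, 1.46, 1.72, 0.76 and 0.59 before and 0.82, 1.10, 0.72, 1.35 and 0.85 after (change -0.18, adjusted p = 0.591), and Stmn1 changed by -0.34 (SE 0.307, adjusted p = 0.446). The unirradiated and irradiated arrays of all 3 genes overlapped. Mad2l1 was at -1.13, -1.14, -1.32, -1.54 and -1.76 before and -2.04, -1.5, -1.94, -0.76 and -1.74 after (change -0.22, SE 0.247, adjusted p = 0.551). Cenpa, which fell in p38DKI mice, was at 0.05, 0.35, 0.54, -0.49 and -0.32 before and -1.22, -0.50, -0.48, 0.02 and -1.19 after (change -0.70, SE 0.296, adjusted p = 0.0764). In both genes irradiated array 4 was the highest of its group and lay within or above the unirradiated range. On the 5 slides that each carried 1 unirradiated and 1 irradiated p38DN array, 6 genes were lower on all 5 (Nusap1, Ube2c, Ccna2, Ccnb2, Stmn1 and, by the brighter of its 2 disagreeing probes, Racgap1) and 4 were higher on all 5 (Cdca8, Incenp, Kif22 and Hmmr). How many of all genes kept 1 direction on all 5 slides was not counted. Slides 9 and 10 held the close unirradiated arrays 5 and 4, and slides 8 and 9 the close irradiated arrays 1 and 5. Agreement among these slides therefore counts for less than that of unrelated arrays. The slide medians over the 34 genes were 0.05, -0.35, -0.45, -0.08 and 1.42 on slides 6 to 10, the last being replicate 4. Over all genes they were 0.06, -0.13, -0.18, 0.22 and 0.08.

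How many genes rose in p38DN mice depended on the arrays, on the background correction and on the table of values used. Without the 7 arrays highest in liver markers, 5 of which are p38DN arrays, 3 genes rose (Anln, Cdca8 and Incenp), 9 fell and the median change was -0.47. Of all genes, 23.2% passed in that setting, against 27.9% as reported. That setting was not planned, and it left p38DN unirradiated arrays 1 and 3 and irradiated arrays 1, 3 and 5. Irradiated arrays 1 and 5 are a close pair, and the omitted irradiated arrays 2 and 4 held the Aurka rise. Among the planned settings, 6 genes rose and 8 fell without the 4 arrays highest in liver markers (29.1% of all genes passed). A liver term in the model gave 7 rises and 8 falls (32.2% of all genes), and slide as a fixed term gave 7 and 5 (26.7%). Plain normexp gave 0 of either (2.33% of all genes passed). In the authors' deposited table of log2 values, 5 of its 33 members rose and 7 fell, where 32.6% of its genes passed. Aurka, Cdca8 and Ect2 no longer passed there. With normexp background correction, after leaving out spots of very high local background, 2 rose (Cdca8 and Incenp) and 5 fell (19.6% of all genes). Without irradiated array 4, Aurka, Prc1 and Ect2 no longer passed. Aurka was also lost without irradiated array 2 or unirradiated array 1, and Prc1 without irradiated array 2 or unirradiated array 2, 3, 4 or 5. With each of the 2 close pairs of arrays averaged to 1 sample 9 rose and 5 fell (23% of all genes passed). Erythroid markers fell in 15 of 26 cases and rose in 4 (mean level 4.08 to 4.88 before and 2.58 to 3.6 after). B cell markers fell in 18 of 18 (1.52 to 2.89 before and -1.04 to 0.18 after), and liver markers fell in 3 of 42 (-0.87 to 6.47 before and -2.31 to 2.02 after). T cell markers fell in 6 of 20 cases and rose in 1. Platelet markers rose in 20 of 20 cases, mature neutrophil markers in 3 of 15 and NK cell markers in 2 of 14. The part of each was not tested.

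**Figure D4:**
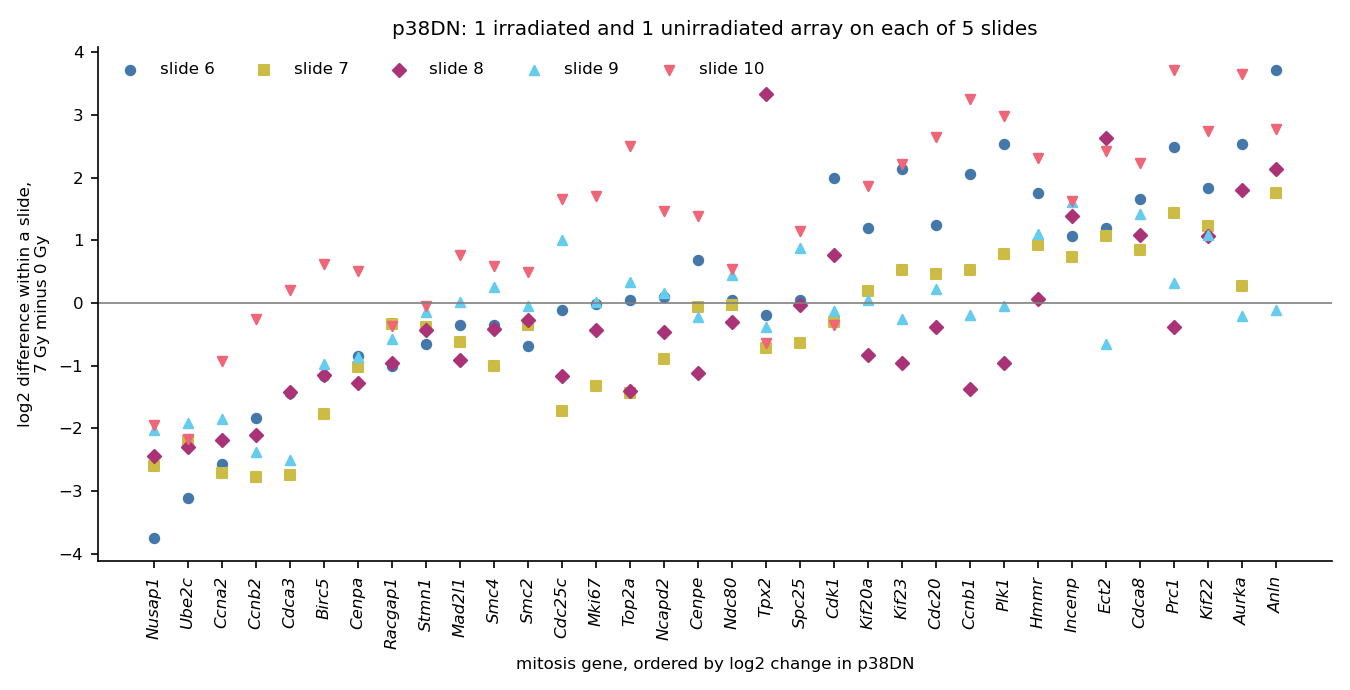
Difference between the irradiated and the unirradiated p38DN array of the same slide (log2), 1 point for each of the 5 slides, for the 34 measured mitosis genes. Nusap1 and Ube2c are below 0 and Cdca8, Incenp, Kif22 and Hmmr above 0 on all 5 slides, and slide 10 lies above the others for many genes. Slides 9 and 10 held the close unirradiated arrays, and slides 8 and 9 the close irradiated arrays.

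Set side by side, the 3 irradiation effects, each with its own control mice, called 24 of the 34 genes. Nusap1 and Ccna2 fell in all 3 genotypes, Mad2l1, Stmn1, Ncapd2 and Smc4 in p38WT and p38DKI mice, and Ccnb2, Ube2c and Cdca3 in p38DKI and p38DN mice. Smc2 passed in p38WT alone, 6 genes in p38DKI alone (Ccnb1, Plk1, Birc5, Cdc20, Cenpa and Kif20a) and the 8 that rose in p38DN alone. The remaining 10 genes passed in none: Cdk1, Cdc25c, Cenpe, Ndc80, Spc25, Tpx2, Kif23, Racgap1, Top2a and Mki67. Of the 34 genes, 14 had a positive estimate in p38DN and negative ones in p38WT and p38DKI mice. A call in 1 genotype and not in another does not show a difference, so the differences were tested.

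The irradiation effect in p38DN minus that in p38WT passed for 1 of the 34 genes, Aurka, where 0.999% of all genes passed in this direction, 0.641% in the other and 1.64% in either. Aurka fell in estimate by 1.17 in p38WT and rose by 1.61 in p38DN mice, a difference of 2.78 (SE 0.709, adjusted p = 0.0439). Of the 4 groups behind it, unirradiated p38DN mice had 1 of 5 arrays well above background, with array 1 at -4.83, and irradiated p38DN mice had 3. That p lay just inside the threshold and passed it in 16 of 39 alternatives, with a range of 0.0223 to 0.765. The next genes were Cdca8 (1.46, SE 0.405, adjusted p = 0.0581), Anln (2.23, SE 0.626, adjusted p = 0.0603) and Ncapd2 (1.29, SE 0.394, adjusted p = 0.0771). In all, 15 of the 34 had an unadjusted p under 0.05, and the median difference was 0.73, against 0.08 over all genes. Slides limit this comparison too. The 2 genotypes were on different slides from different scan periods, which cancels here only if such effects add, and 4 of the 5 unirradiated p38WT arrays filled slide 1. With slide as a fixed term in limma 0 of the 34 passed (4 at an unadjusted p under 0.05), where 0.0107% of all genes did. For Nusap1, which fell by a similar amount in both, the difference was -0.03 with a 95% interval of -1.12 to 1.05. With normexp and spots of very high local background left out, the Aurka difference was 0.49.

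The irradiation effect in p38DKI minus that in p38WT passed for 0 of the 34 genes by limma, with 3 at an unadjusted p under 0.05, where 0.00534% of all genes passed. The 3 were Kif20a (-1.22, SE 0.547, adjusted p = 0.329), Ube2c (-1.19, SE 0.55, adjusted p = 0.344) and Cenpa (-0.86, SE 0.418, adjusted p = 0.357). For Nusap1 the difference was -0.85 with a 95% interval of -1.94 to 0.23, which includes 0. Falls were called for more genes in p38DKI than in p38WT mice, and no single gene's difference passed.

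Levels were also compared between p38DKI and p38WT mice, whose arrays came from the same scan, although no slide held unirradiated arrays, or irradiated arrays, of both genotypes. Before irradiation 0 of the 34 genes passed by limma (0.101% of all genes did, 0.0854% higher and 0.0160% lower in p38DKI) and 2 had an unadjusted p under 0.05. Stmn1 was higher in p38DKI mice in estimate, with means of 2.98 and 1.93 (difference 1.05, SE 0.307, adjusted p = 0.258), and Hmmr, a spindle assembly factor, was lower, with means of -3.15 and -2.07 (difference -1.09, SE 0.35, adjusted p = 0.314). Next came Cdca3 (0.72, SE 0.401, adjusted p = 0.736). After irradiation 0 of the 34 passed by limma (4.51% of all genes did) and 5 had an unadjusted p under 0.05. Ube2c came closest, with means of 4.86 in p38DKI and 6.16 in p38WT mice (difference -1.30, SE 0.389, adjusted p = 0.0514), then Kif23 (-1.17, SE 0.388, adjusted p = 0.0735) and Nusap1 (-1.05, SE 0.373, adjusted p = 0.089).

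Across arrays the genes varied together. With group means removed, 543 of the 561 pairs among the 34 genes had a positive Pearson correlation over the 30 arrays, with a median of 0.49, and 507 did over the 29 arrays without p38DKI irradiated array 2, with a median of 0.36. All genes of an array share its RNA and its scaling, so these values are descriptions. Ube2c and Nusap1 were closest (0.97, and 0.96 over 29 arrays), followed by Ccna2 with Nusap1 (0.92), Ccna2 with Ube2c (0.91) and Cdc20 with Prc1 (0.91). The lowest pair was Ube2c with Hmmr (-0.52).

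The genes differed in how they followed the erythroid markers. Over the 30 arrays, group means removed, the mean of the 26 erythroid markers had a correlation of 0.97 with Ube2c, 0.95 with Nusap1 and 0.93 with Ccna2, the median over the 34 genes was 0.44 and the lowest was -0.45 for Hmmr. Without p38DKI irradiated array 2 these were 0.96, 0.93, 0.89, 0.17 and -0.59. With platelet markers the median was 0.26 and the highest value was 0.81, for Incenp (0.7 over 29 arrays). With B cell markers the median was 0.33 and the highest value was 0.8, for Smc4 (0.66 over 29 arrays). Outside the list, the genes whose levels lay nearest to the mean of the 34 were Uhrf1 (0.92), Ccnb1-ps (0.91), Cdca5 (0.88) and Aspm (0.86), each over 30 arrays with group means removed. Ccnb1-ps is a pseudogene of Ccnb1, and whether its probe reads the parent gene was not tested.

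Other mitosis genes, of which 81 were measured, gave 5 higher and 18 lower in p38WT and 4 higher and 28 lower in p38DKI mice. In p38DN mice 14 were higher and 8 lower, and the median changes were -0.37, -0.45 and 0.25. The shares called were 28.4, 39.5 and 27.2%, against 27.1, 31.3 and 27.9% of all genes. In p38WT and p38DN mice the share was thus near that of all genes. Cdc25b, a phosphatase that activates Cdk1, fell in each (-2.20, -2.91 and -2.52, adjusted p = 3.34e-05, 6.33e-07 and 5.78e-06), as did Fzr1, the late activator of the anaphase-promoting complex (-1.82, -2.22 and -1.74). Psrc1 and Gtse1, which are known p53 targets that act on microtubules, rose in each: Psrc1 by 3.33, 1.47 and 2.42 and Gtse1 by 2.26, 1.60 and 3.47. No unirradiated array of p38WT or p38DN mice measured Gtse1 well above background, so its rises there are at least 1.01-fold and at least 2.58-fold, and with normexp its p38DKI change was -0.18 with high-background spots left out. Espl1, the separase that opens the cohesin ring, rose in p38DN mice (2.51, SE 0.529, adjusted p = 0.00077), where Spc24 of the kinetochore fell (-1.45, SE 0.242, adjusted p = 6.34e-05).

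Regulators of these promoters and of the cell cycle, 36 measured of 41 listed, gave 6 higher and 6 lower in p38WT mice. In p38DKI mice the counts were 4 and 16 and in p38DN mice 10 and 5. The shares called were 33.3, 55.6 and 41.7%, against 27.1, 31.3 and 27.9% of all genes. Cdkn1a, the p53-induced inhibitor of cyclin-dependent kinases, rose by 3.50, 4.14 and 4.35 in the 3 genotypes (adjusted p = 1.01e-06, 8.35e-08 and 5.21e-08). Foxm1, an activator of mitotic promoters, had estimates of -0.67, -0.78 and -0.70 that did not pass (adjusted p = 0.131, 0.0681 and 0.111). Mybl2, which turns the MuvB core from repressor to activator, fell in p38DKI mice (-0.91, adjusted p = 0.0352) and had estimates of -0.33 and -0.32 in p38WT and p38DN mice. Of the repressor side of DREAM, E2f4 passed in none (-0.52, -0.50 and 0.01), Rbl1 (p107) fell in p38DKI mice (-0.92, adjusted p = 0.046) and Rbl2 (p130) rose in p38DN mice (1.15, adjusted p = 0.00314). E2f2 and Tfdp2, an activator and a partner of the E2F family, fell in all 3 genotypes, E2f2 by 1.67, 2.51 and 2.15 and Tfdp2 by 1.78, 3.17 and 2.02 on the log2 scale. E2f1 rose in p38DN mice (0.96, adjusted p = 0.000229). Of the p38 genes themselves, Mapk14 (p38 alpha) rose by 0.89, 0.80 and 1.28, and Mapk11 (p38 beta) had changes of -1.59, -1.35 and -0.46, the last not passing (adjusted p = 0.216).

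Of the 34 genes, 13 had several probes on the array, and some of these disagreed. In p38DN mice the 2 kept Ccnb1 probes changed by 0.85 and -0.36 and the 2 Racgap1 probes by -0.65 and 0.38, so the direction of either gene there depends on the probe. For the genes the results turn on they were close: 2 probes of Ube2c changed by -2.34 and -2.34 in p38DN mice, 2 of Incenp by 1.28 and 1.13, 2 of Stmn1 by -2.09 and -2.40 in p38DKI mice, and 3 of Birc5 by -1.23, -1.08 and -1.45. The 2 Cdca8 probes changed by 1.45 and 0.78 in p38DN mice. Nusap1, Ccna2, Ccnb2, Aurka and Anln rest on 1 probe each.

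**Figure D5:**
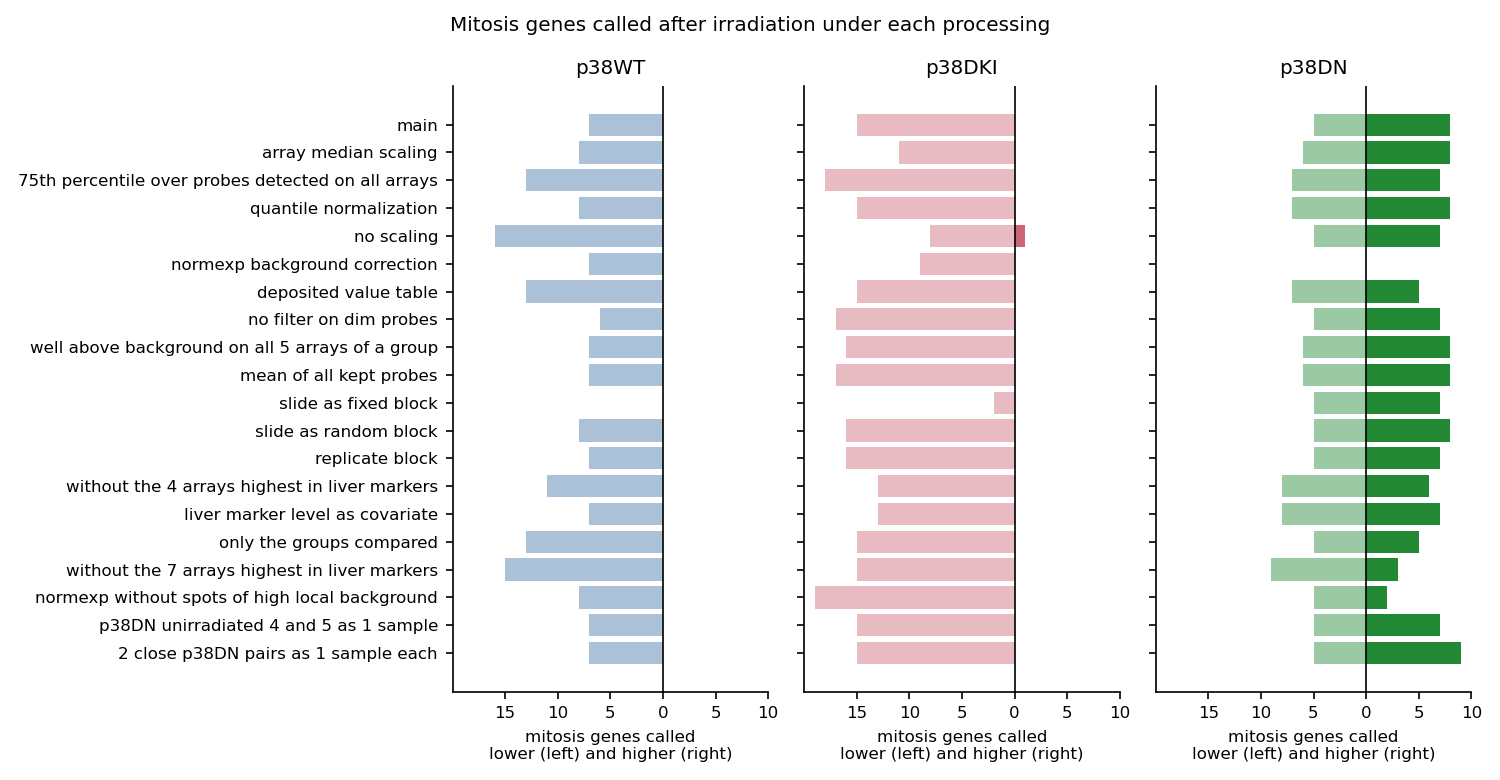
Number of the 34 mitosis genes called lower (left of 0) and higher (right of 0) after irradiation in each genotype, for the reported setting (main) and each alternative other than those leaving out 1 array. Falls outnumber rises in p38WT and p38DKI mice in every row that has calls, and in p38DN mice the number of rises ranges from 0 to 9.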

How the data were processed

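Blood RNA (PAXgene, Cy3 label) of 30 mice was hybridised to one-colour Agilent arrays, and each array was read with Agilent Feature Extraction 12.0.2, per the submitters' processing notes. Values start from the processed signal intensity that the authors deposited for each of 44397 spots, which that software had background-subtracted. Spots flagged as outliers were left out, repeated spots averaged, log2 taken and each array's 75th percentile subtracted. A probe was kept when well above background on 4 or more arrays of a group, with a value on at least 20 arrays. The authors also deposited a table of processed log2 values (18417 rows), used as an alternative.

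One limma model (version 3.58.1, R 4.3.3, with version 1.17.8 of data.table) fitted 6 group means over all 30 arrays (24 residual degrees of freedom), with Benjamini-Hochberg adjustment over 18726 genes and a threshold of 0.05. Tables and figures used Python 3.11.15, pandas 2.3.3, numpy 2.4.6 and matplotlib 3.10.9. The code was tested on simulated data. Names came from RefSeq by accession (29056 probes), symbol (3150) or synonym (116), or stayed as in the file (7107). Members, lists and tests were chosen with earlier results of these data known. Every member is counted. Array values are given for the member of each role group with the smallest p in each irradiation effect, changes for up to 15 members passing in a comparison (or the first 3 if fewer than 3 passed), and some of up to 5 other genes each way. Plk1 in p38DN and other members described without a call were named after their values were seen. The labels call the 5 mice of a group independent experiments. The number of arrays limits the precision. Alternatives covered scaling, background, filters, probes, slide, replicate number, liver markers and single arrays.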

Additional observations from a re-analysis of the deposited data

Results flagged for a closer look

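Of 90 groups of 5 arrays checked over 15 genes, 7 held 1 array far from the other 4, where chance gives about 1 in 20. Irradiated p38DKI array 2 accounted for 5 of them: Plk1 was at -2.78 there (others -1.34 to -1.08), Cenpa at -1.92 (others -0.62 to -0.19), Kif23 at -4.22 (others -2.86 to -2.36), Ncapd2 at -1.10 (others -0.25 to -0.01) and Smc4 at -0.03 (others 1.11 to 1.47). That array had the highest liver marker mean of all 30 arrays, 7.84. Aurka was at -4.83 on unirradiated p38DN array 1 (others -3.57 to -3.34), and Birc5 was at 1.58 on irradiated p38DN array 4 (others -0.07 to 0.31). The irradiation effect on Aurka differed between p38DN and p38WT mice by 2.78 in a test of the difference itself (limma, adjusted p = 0.0439).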

How the results depend on the processing

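Over single mitosis genes and settings, 1251 values kept their direction and side of the threshold, 140 no longer passed, 27 newly passed and 5 reversed. In p38WT mice, where 27.1% of all genes passed as reported, 13 of the 34 genes passed when scaled on probes detected on all arrays (30.6% of all genes), 16 with no scaling (22.5%), 13 in the authors' deposited table (of its 33 members; 31.3%), 11 and 15 without the 4 and the 7 arrays highest in liver markers (34.2 and 36.2%), 13 with only the groups compared (30.7%) and 0 with slide as a fixed term (0.87%; limma, 3 at an unadjusted p under 0.05). In p38DKI mice 9 passed with no scaling (1 higher, Mki67, and 24.5% of all genes), 9 with normexp (7.35%) and 2 with slide fixed (3.63%), against 31.3% as reported. In p38DN mice 0 passed with normexp (2.33% of all genes; limma, 6 at an unadjusted p under 0.05) and 7 with normexp without spots of high local background (19.6%), against 27.9% as reported. On 13 arrays such spots, with a local background over 200, were present, and on 9 arrays plain normexp gave median log2 values of 6.82 to 10.18, against 6.05 to 6.37 on the others. For p38DN minus p38WT, 0 genes passed with median scaling, normexp, no filter, slide fixed, without the 7 liver arrays, or with p38DN unirradiated arrays 4 and 5 as 1 sample (limma, 15, 6, 16, 4, 12 and 14 at an unadjusted p under 0.05), where 0.566, 0.00534, 0.263, 0.0107, 0.967 and 0.774% of all genes passed, against 1.64% as reported. There, 2 passed with quantile normalization (2.87% of all genes), the liver covariate (5.38%) or normexp without those spots (2.76%). The same number passed with both close pairs as 1 sample each (0.865%). With the 75th percentile over detected probes (2.29%) or slide as a random block (2.46%) 3 passed. Without the 4 liver arrays (3.7%) or with only the groups compared (2.73%) 3 passed, and with no scaling (1.53%) 4 did. For p38DKI against p38WT, 1 passed unirradiated with the liver covariate (1.36% of all genes, against 0.101% as reported). Irradiated, 1 passed with quantile normalization (3.34% of all genes), the deposited table (2.9%) or the filter on all 5 arrays (5.54%). The mean of probes (4.26%) and the replicate block (5.11%) also gave 1. With slide as a random block (10.3%) or normexp without those spots (8.17%) 2 passed, against 4.51% of all genes as reported.

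Leaving out 1 array gave 5 to 9 genes in p38WT, 13 to 17 in p38DKI, 11 to 14 in p38DN, 0 to 3 for p38DN minus p38WT, and 0 to 2 for irradiated p38DKI against p38WT. The shares of all genes were not counted for these. The replicate numbers did not pair the arrays throughout (correlations of -0.22 to 0.41). In p38DN mice, where the number also names the slide, the same number was the best match for replicates 2, 3 and 4 (0.26, 0.41 and 0.33). With the replicate block 7 genes passed in p38WT (27% of all genes), 16 in p38DKI (30.8%) and 12 in p38DN (28.2%). For p38DN minus p38WT 1 passed (1.51%). Scaling moved the median change of all genes in p38DKI mice from -0.25 to 0.17 (array median), -0.34 (detected probes), -0.12 (quantile) or 0.37 (none), and in p38WT mice from -0.03 to -0.21 (detected probes) or -0.46 (none).

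Reversed values, whose cause was not tested, were as follows. With normexp, p38WT changes were -0.22 for Anapc11, 0.06 for Pds5b, 0.23 for Foxm1 and 0.21 for E2f4, the p38DKI change of Gtse1 was -0.26, the p38DN change of E2f4 was -0.01, the p38DN minus p38WT difference of Anln was -0.09, and Hmmr in unirradiated p38DKI against p38WT was 0.16. Without spots of high local background, normexp gave 0.08 for Foxm1 and 0.05 for E2f4 in p38WT, -0.18 for Gtse1 in p38DKI, and 0.01 for Hmmr. Mybl2 in p38WT was 0.01 with slide fixed. With no scaling, E2f4 in p38DKI was 0.12, Cenpa in p38DKI minus p38WT was 0.19 and Wapl in irradiated p38DKI against p38WT was 0. Stmn1 in unirradiated p38DKI against p38WT was -0.18 in the deposited table. E2f4 in p38DN, 0.01 as reported, was -0.14 with detected probes, -0.13 with the liver covariate, -0.08 without the 7 liver arrays and from -0.09 to 0.13 with 1 array left out, below 0 without unirradiated array 3 or 5 or irradiated array 2, 3 or 4. Rbl1 in p38DN, -0.13 as reported, ranged from -0.38 to 0.03 with 1 array left out, above 0 without unirradiated array 1 or 3. The alternatives without 7 arrays, without high-background spots and with close pairs merged were chosen after seeing the data.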
